A study of Mus musculus with 32 samples.

Results

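Regulatory T cells (Tregs), a Foxp3-dependent lineage that keeps immune responses in check, gave libraries that held transcripts of genes better known from antigen-presenting cells. The 10 genes described here are Cd80, Cd86, Cd83, Icam1, Cd74, Ly75, H2-Aa, H2-Ab1, H2-Eb1 and Ciita, out of 54087 genes in the tables. They were selected on measured values, namely their differences between control cultures and cultures with agonists of receptors of the tumour necrosis factor family and between control cultures and resting cells. Those differences are therefore given as a description without a p-value. All 10 passed the filter on low counts, which left 14313 genes. As a description of how they were chosen, 5 of them, Cd80, Cd83, Icam1, Cd74 and Ly75, lay higher than the control of the same time with all 4 agonists at both times, past the threshold used for calls (adjusted p under 0.05). Of all genes tested 315 did so, or 2.2%, a share from which nothing is read here. Ciita passed it with no agonist, and Cd86, Cd83, Cd74, Ciita and the class II chains were lower in control cultures at 18 h than in resting cells.

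Antigen-presenting cells, such as dendritic cells and B cells, show peptides to CD4 T cells on class II molecules, which are pairs of an alpha and a beta chain. H2-Aa and H2-Ab1 encode the alpha and beta chain of H2-A, and H2-Eb1 encodes the beta chain of H2-E, whose alpha chain gene carries an inactivating deletion in C57BL/6 mice. Cd74 encodes the invariant chain, which holds the groove of new class II molecules closed until they meet peptide, and Ciita encodes the coactivator that class II genes need. CD80 and CD86 are the ligands of CD28 and of CTLA-4, a receptor that Tregs use to strip both ligands from other cells. CD83 marks mature dendritic cells and slows the removal of class II and CD86 from the surface, ICAM-1 is the adhesion ligand of the integrin LFA-1, and Ly75 is an endocytic receptor of dendritic cells.

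All libraries came from purified GFP+ Tregs of mice aged 2.5 months on the C57BL/6 background that carry a Foxp3-IRES-GFP knock-in, so controls and treated cells share this allele. Resting Tregs (3 libraries) had no culture. Control cultures received coated anti-CD3 and anti-CD28 plus IL-2 (10 ng/ml) without agonist, and were taken after either 18 h or 36 h (3 libraries at each time). To the same mixture, the other cultures added 1 agonist: for TNFR2 it was STAR2, also named TNC-sc(mu)TNF80, at a dose of 12 ng/ml, for 4-1BB the antibody 3H3 at 10 µg/ml, for DR3 its ligand TL1A at 12 ng/ml, and for OX40 the ligand OX40L at 100 ng/ml. Each agonist had 3 libraries per time, except OX40L at 18 h with 2. Doses were not matched between agonists, and stimulation, IL-2, culture and time cannot be told apart in any comparison with resting cells. The labels do not say whether libraries of a group came from separate mice, so p-values measure the spread between these libraries, which may be technical.

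Total expected counts ranged from 11880270 to 38083925 per library over 32 libraries. The Treg label was borne out by Foxp3, which lay between 168 and 299 TPM (abundance scaled for transcript length and library depth) in the means of all 11 groups, and by Il2ra, Cd4 and Cd3e, of which the lowest group mean was 197 TPM. B cell and myeloid markers were highest in resting libraries. The 19 markers of dendritic cells, macrophages and monocytes other than Cst3 summed to between 25.5 and 31.1 TPM in resting libraries and to between 2.79 and 6.43 TPM in the cultures. The 13 B cell markers other than immunoglobulin genes, Cd72 and Cd79b summed to between 18.3 and 24.3 TPM in resting libraries and to between 2.16 and 5.97 TPM in the cultures. In bulk RNA, fewer cells of a type and less RNA per cell cannot be told apart. The CD8 T and NK cell markers, led by Nkg7, summed to between 110.7 and 122.0 TPM in resting libraries and to between 110.3 and 170.9 TPM in the cultures. Of the cultures, 6 libraries exceeded 10000 CPM (counts scaled to library size) for a ribosomal locus transcript: control replicates 1 and 2 and TNFR2 agonist replicate 1 at 18 h, and TNFR2 agonist replicate 1, DR3 agonist replicate 3 and OX40 agonist replicate 2 at 36 h. Values without these libraries are given below where a call among the 10 genes ended without them, as did that of Ciita between resting cells and controls at 18 h (-1.015). Control replicate 3 is then the only control library left at 18 h. In comparisons with that group, lost calls cannot be told apart from the loss of libraries.

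Against resting cells, all 10 genes were called changed in control cultures at 18 h, where 80.9% of all genes were called: 3 were higher, as were 40.9% of all genes, and 7 lower, as were 40.1%. The libraries of both groups did not overlap in CPM for the same numbers of genes, against 41.2% (higher) and 40.5% (lower) of all genes. At 36 h, 9 were called, against 84.5% of all genes: 3 were higher (42.4% of all genes) and 6 lower (42.1%), and as many did not overlap (42.4% and 42.1%). The genes that were higher were Cd80, Icam1 and Ly75 at both times. The median log2 fold change of the 10 genes was -0.93 at 18 h and -0.56 at 36 h, against -0.01 for all genes at both times. At 18 h each agonist gave 6 calls among the 10 genes, all higher, where the TNFR2, 4-1BB, DR3 and OX40 agonists called 31.1%, 25.8%, 19.6% and 19% of all genes. At 36 h they gave 7, 6, 5 and 5 calls, all higher, against 24.8%, 22.5%, 13.4% and 13.3% of all genes. Counting higher calls alone, the shares of all genes were 15.8%, 12.7%, 9.66% and 9.32% at 18 h and 13%, 10.9%, 6.97% and 7.12% at 36 h. Lower calls, of which the 10 genes had none, made up 15.3%, 13.1%, 9.94% and 9.71% of all genes at 18 h and 11.9%, 11.5%, 6.39% and 6.21% at 36 h. Counted by libraries that did not overlap at 18 h, 6 of the 10 genes lay wholly above the control with each agonist, against 21.1%, 21.5%, 16.6% and 21.5% of all genes. Wholly below it lay H2-Ab1 with the DR3 agonist and H2-Aa and H2-Eb1 with the OX40 agonist, none of them called, against 17.7% and 23% of all genes. The 4 agonists at a time share the same 3 control libraries.

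**Figure D1:**
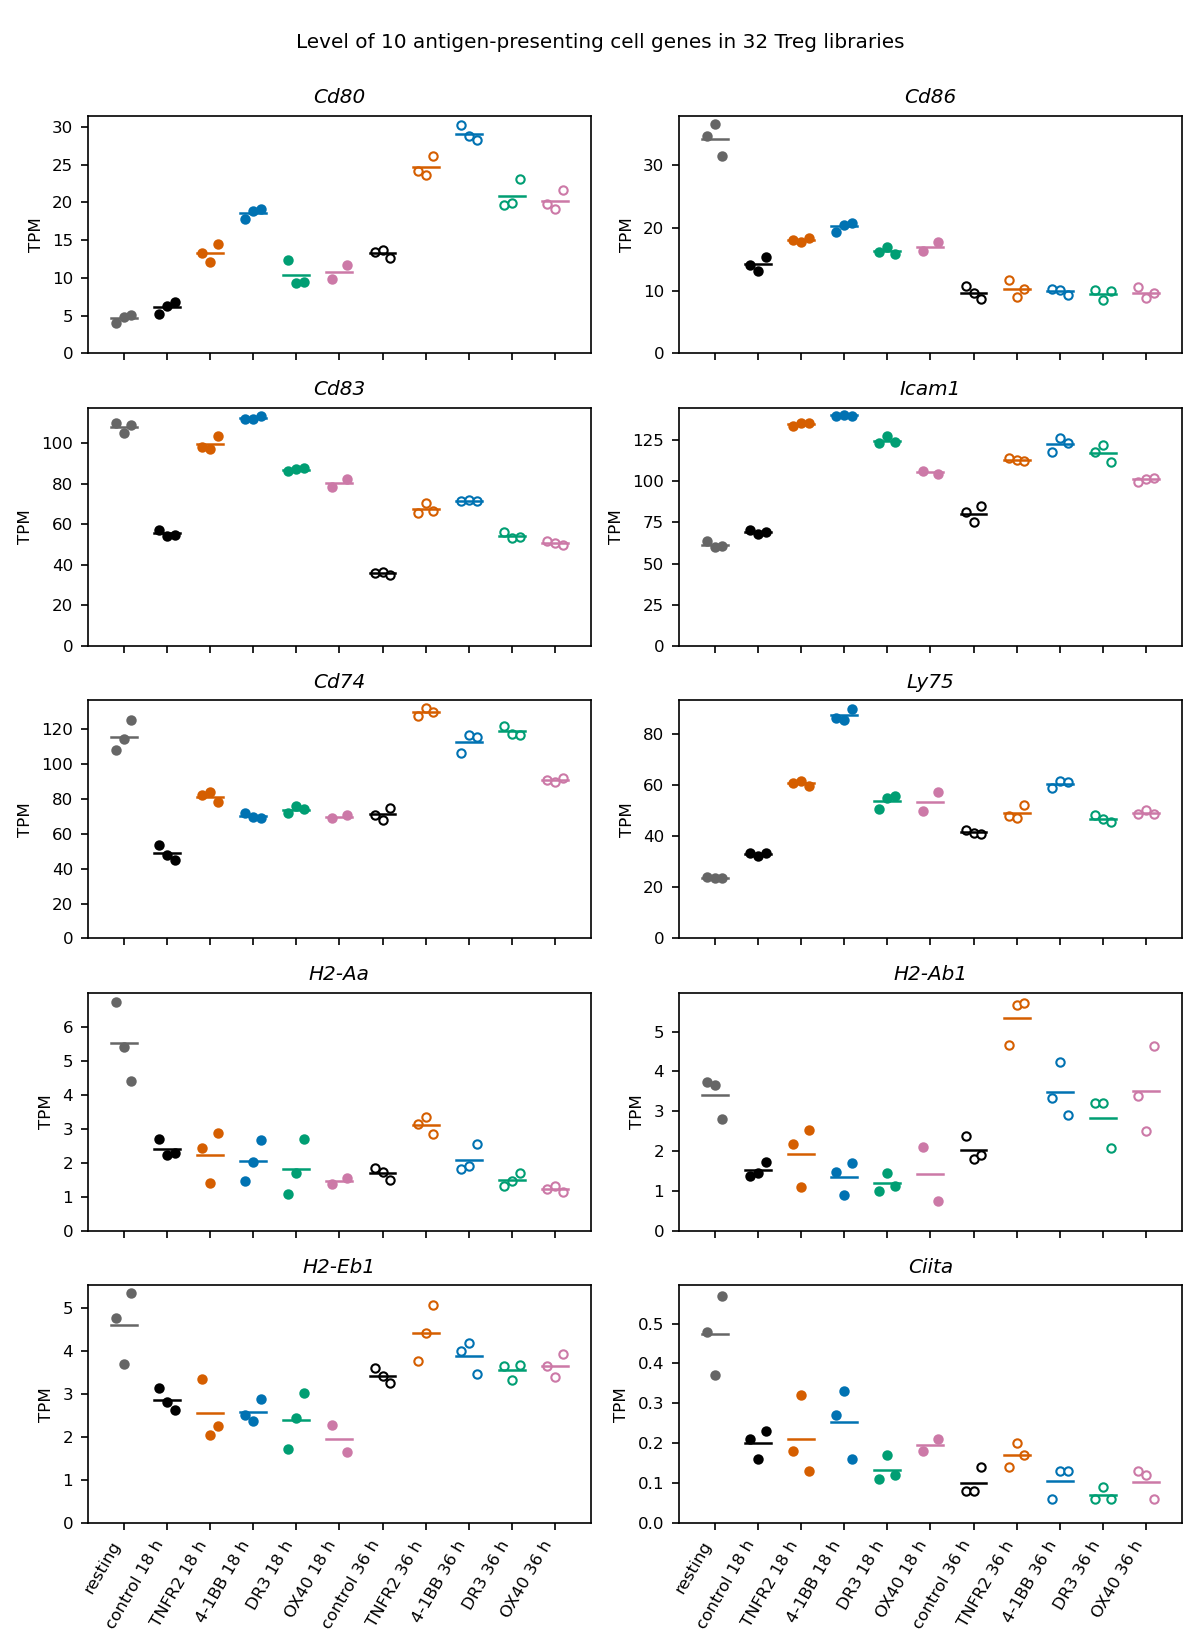
Level in TPM (y axis, from 0) of each of the 10 genes in every library, by group (x axis). Points are libraries, filled for resting cells and 18 h and open for 36 h, bars are group means, and colours mark the agonist. Cd80, Icam1 and Ly75 rise from resting cells to control to agonist cultures, whereas Cd86, H2-Aa, H2-Eb1 and Ciita have their highest mean in resting cells.

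Cd80 (ENSMUSG00000075122, chr16:38455561-38496335 of mm10, plus strand) had the widest range of the 10 genes apart from Ciita, with group means from 4.63 to 29.1 TPM. It was at 3.99, 4.87 and 5.03 TPM in resting libraries and at 5.23, 6.31 and 6.83 TPM in controls at 18 h. With agonists at 18 h it reached 12.1, 13.4 and 14.6 TPM (TNFR2), 17.8, 18.8 and 19.2 TPM (4-1BB), 9.28, 9.43 and 12.33 TPM (DR3) and 9.91 and 11.7 TPM (OX40). Every agonist library at 18 h thus lay above every control, and the 4-1BB libraries lay above all others of that time. The log2 fold changes against control were 1.23 ± 0.09 (SE) for the TNFR2 agonist, 1.71 ± 0.08 for the 4-1BB agonist, 0.86 ± 0.09 for the DR3 agonist and 0.85 ± 0.10 for the OX40 agonist.

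By 36 h the control itself had risen to 12.7, 13.5 and 13.7 TPM, 2.26-fold above the 18 h control (log2 1.17 ± 0.08, adjusted p = 1.49e-16). The 4-1BB libraries stood at 28.2, 28.8 and 30.2 TPM, TNFR2 at 23.6, 24.1 and 26.2 TPM, DR3 at 19.6, 19.9 and 23.1 TPM and OX40 at 19.2, 19.8 and 21.6 TPM. DR3 and OX40 libraries overlapped each other and none overlapped the control. The log2 fold changes were 1.04 ± 0.07 (4-1BB), 0.92 ± 0.07 (TNFR2), 0.65 ± 0.07 (OX40) and 0.57 ± 0.07 (DR3).

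Cd86 (ENSMUSG00000022901, chr16:36603869-36666081, minus strand), the other ligand of CD28 and CTLA-4 and a neighbour of Cd80 on the chromosome, followed another course. It stood at 31.5, 34.5 and 36.4 TPM in resting libraries, at 13.1, 14.1 and 15.3 TPM in controls at 18 h and at 8.72, 9.55 and 10.7 TPM in controls at 36 h. Every cultured library lay below every resting one, and the highest, with the 4-1BB agonist at 18 h, was at 20.8 TPM. From 18 h to 36 h the control fell further (log2 -0.60 ± 0.07, adjusted p = 1.2e-09). At 18 h the agonist libraries lay between 15.8 and 20.8 TPM, above the controls, with log2 fold changes of 0.53 ± 0.07 (4-1BB), 0.34 ± 0.07 (TNFR2), 0.27 ± 0.07 (OX40) and 0.23 ± 0.07 (DR3).

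These Cd86 calls at 18 h depended on the libraries and the fit used. Without the libraries rich in the ribosomal locus transcript, control replicate 3 is the only control left at 18 h. The differences for the TNFR2, OX40 and DR3 agonists were then 0.23, 0.19 and 0.16 and were no longer called. Without control replicate 2 alone, those of OX40 and DR3 were 0.22 and 0.19 and not called, and leaving out OX40 replicate 2 or DR3 replicate 2 gave 0.22 and 0.20, also not called. At 36 h the 4 agonists gave Cd86 log2 fold changes from -0.12 to 0.08, none called, and all 15 libraries of that time lay between 8.48 and 11.7 TPM. The ratio of Cd80 to Cd86 TPM rose accordingly, from a mean of 0.14 in resting libraries to 0.43 and 1.38 in controls at 18 h and 36 h. It reached 2.94 (range 2.85 to 3.01) with the 4-1BB agonist at 36 h.

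Cd83 (ENSMUSG00000015396, chr13:43784775-43803132, plus strand) fell in control cultures and was higher with each agonist. Its level was 105, 109 and 110.3 TPM in resting libraries, 54.3, 54.8 and 57.5 TPM in controls at 18 h and 34.8, 36.0 and 36.6 TPM in controls at 36 h. The fall of the control from 18 h to 36 h was -0.63 ± 0.04 on the log2 scale (adjusted p = 3.44e-18). With the 4-1BB agonist it was at 112, 112 and 114 TPM at 18 h, above every resting library, and at 71.5, 71.6 and 71.8 TPM at 36 h, below every resting library.

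TNFR2 libraries held 97.4, 98.4 and 104 TPM of Cd83 at 18 h and 65.5, 66.7 and 70.7 TPM at 36 h. DR3 libraries held 86.2 to 87.8 TPM and then 53.2 to 56.3 TPM, and OX40 libraries 78.4 and 82.6 TPM and then at most 51.8 TPM. None of these overlapped the control of its time. The log2 fold changes at 18 h and 36 h were 1.05 ± 0.04 and 1.02 ± 0.04 for 4-1BB, 0.90 ± 0.04 and 0.98 ± 0.04 for TNFR2, 0.70 ± 0.04 and 0.63 ± 0.04 for DR3, and 0.55 ± 0.04 and 0.55 ± 0.04 for OX40. For Cd83 the difference between the 36 h and the 18 h effect was not called with any agonist, and lay between -0.07 ± 0.06 (DR3) and 0.08 ± 0.06 (TNFR2).

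**Figure D2:**
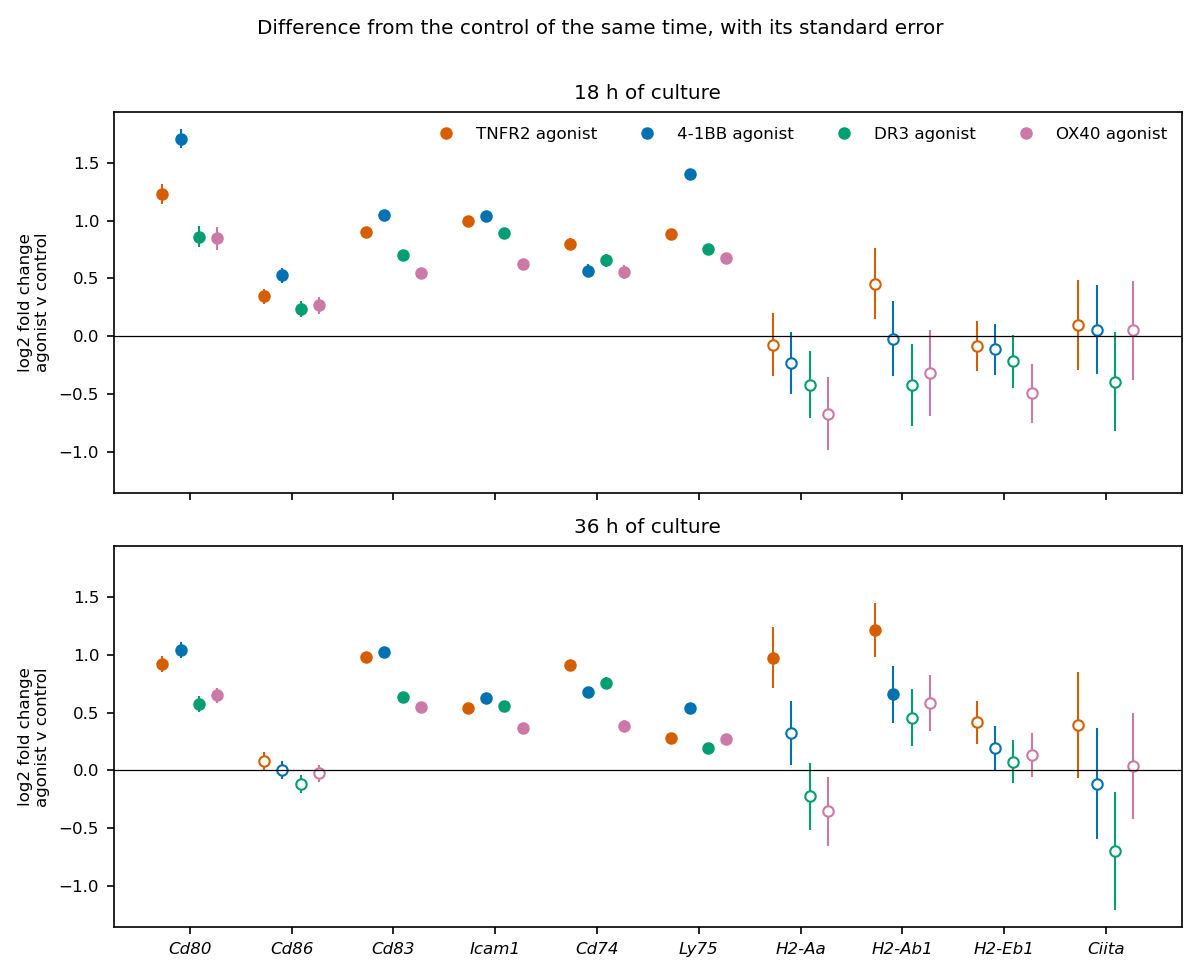
Log2 fold change of each agonist against the control of the same time (y axis) for the 10 genes (x axis), at 18 h above and 36 h below. Bars are standard errors of the edgeR fit, and filled points were called at an adjusted p under 0.05. Cd80, Cd83, Icam1, Cd74 and Ly75 lie above 0 with all 4 agonists at both times, from 0.20 for Ly75 with the DR3 agonist at 36 h to 1.71 for Cd80 with the 4-1BB agonist at 18 h.

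Icam1 (ENSMUSG00000037405, chr9:21015985-21028817, plus strand) had the highest mean TPM of the 10 genes in 8 of the 11 groups, Cd74 being higher in the other 3, and the smallest ratio of highest to lowest group mean, 2.28. Resting libraries held 59.9, 60.8 and 63.9 TPM, controls at 18 h 68.1, 69.3 and 70.6 TPM and controls at 36 h 75.0, 81.1 and 84.8 TPM. At 18 h the levels were 139.8, 139.9 and 140.5 TPM with the 4-1BB agonist, 133, 136 and 136 TPM with the TNFR2 agonist, 123, 124 and 127 TPM with the DR3 agonist and 104 and 107 TPM with the OX40 agonist. The groups did not overlap, in the order 4-1BB, TNFR2, DR3, OX40 and control, although TNFR2 differed from neither 4-1BB nor DR3 in the pairwise tests. Log2 fold changes were 1.04 ± 0.04, 1.00 ± 0.04, 0.89 ± 0.04 and 0.62 ± 0.04 in that order of agonists. At 36 h the agonist libraries lay between 99.7 and 126 TPM, all above the control, and the log2 fold changes were 0.62 ± 0.04, 0.54 ± 0.04, 0.56 ± 0.04 and 0.36 ± 0.04.

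The 250 bases before the Icam1 start site are shown because they hold a 9-base sequence of the kB type, the kind bound by NF-kB, which receptors of this family engage. The region is chr9:21015690-21015939 of GRCm38.p6, plus strand, from RefSeq, written from its far end to the base before the start site. The capitals mark GGAAATTCC, searched on both strands, which was found in 0.286% of 32851 upstream regions of the same length. It starts 153 bases before the start site. The letters were chosen after this sequence had been seen, so nothing is read from that share. A match is a description of the sequence and was not measured as a bound site here.
Icam1: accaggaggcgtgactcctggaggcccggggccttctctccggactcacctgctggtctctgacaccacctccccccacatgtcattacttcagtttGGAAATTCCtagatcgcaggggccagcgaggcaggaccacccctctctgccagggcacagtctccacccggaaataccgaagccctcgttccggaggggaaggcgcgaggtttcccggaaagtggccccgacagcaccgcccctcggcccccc

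Ly75 (ENSMUSG00000026980, chr2:60292103-60383303, minus strand) had a sharp peak with the 4-1BB agonist at 18 h. Resting libraries held 23.5, 23.6 and 24.0 TPM, controls at 18 h 32.2, 33.5 and 33.6 TPM and controls at 36 h 40.9, 41.3 and 42.3 TPM, each group above the one before it. The 4-1BB libraries at 18 h held 85.5, 86.4 and 89.8 TPM, against 59.7 to 61.4 TPM with the TNFR2 agonist, 50.8 to 55.8 TPM with the DR3 agonist and 49.7 and 57.3 TPM with the OX40 agonist. At 36 h they had come down to 58.7, 61.3 and 61.6 TPM, and the other 9 agonist libraries lay between 45.6 and 52.2 TPM. The fold over control with the 4-1BB agonist was thus 2.64 at 18 h (log2 1.40 ± 0.04) and 1.45 at 36 h (log2 0.54 ± 0.04). TNFR2, DR3 and OX40 agonists gave log2 fold changes of 0.89 ± 0.04, 0.75 ± 0.04 and 0.68 ± 0.04 at 18 h and of 0.28 ± 0.04, 0.20 ± 0.04 and 0.27 ± 0.04 at 36 h.

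Cd74 (ENSMUSG00000024610, chromosome 18, plus strand) had its largest fold change with the TNFR2 agonist at both times. It stood at 108, 114 and 125 TPM in resting libraries, fell to 45.1, 47.8 and 53.8 TPM in controls at 18 h and was back at 67.7, 71.0 and 75.1 TPM in controls at 36 h (log2 0.56 ± 0.05 between the times, adjusted p = 2.45e-12). With the TNFR2 agonist it was at 78.2, 82.2 and 83.8 TPM at 18 h and at 128, 130 and 132 TPM at 36 h. The latter 3 libraries lay above every resting library. DR3 libraries held 71.8, 74.1 and 76.0 TPM and then 117, 117 and 122 TPM, 4-1BB libraries 69.4, 69.5 and 72.02 TPM and then 107, 115 and 116.5 TPM, and OX40 libraries 68.8 and 71.0 TPM and then 90.0, 91.2 and 92.0 TPM. The log2 fold changes at 36 h were 0.91 ± 0.05 (TNFR2), 0.76 ± 0.05 (DR3), 0.67 ± 0.05 (4-1BB) and 0.38 ± 0.05 (OX40), and at 18 h 0.80 ± 0.05, 0.66 ± 0.06, 0.57 ± 0.06 and 0.55 ± 0.06 in the same order.

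The class II chains were scarce in every group. Their group means ran from 1.23 to 5.51 TPM for H2-Aa (ENSMUSG00000036594, chr17:34282744-34287823, minus strand), from 1.19 to 5.35 TPM for H2-Ab1 (ENSMUSG00000073421, chr17:34257689-34269419, plus strand) and from 1.97 to 4.59 TPM for H2-Eb1 (ENSMUSG00000060586, chr17:34305867-34316674, plus strand). No library held more than 84 expected counts of any of the 3, so differences between single libraries are within reach of counting error. RSEM shares out reads among related genes, which adds to the uncertainty of these chains. Cd74 was 21.6 to 45.3 times the mean of the 3 chains by TPM in the means of the 11 groups.

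The regions before the start sites of H2-Aa and H2-Eb1 are shown because class II promoters are known for an X box and a Y box, and CIITA acts through the factors bound there. Capitals mark the X box core CTNGCAAC and the Y box CTGATTGG, searched on both strands in the 250 bases before each start in RefSeq on GRCm38.p6. The X box core was found in 2.84% of 32851 such regions, the Y box in 3.83% and both in 0.155%. H2-Aa is at chr17:34287824-34288073, minus strand, with the boxes starting 84 and 51 bases before the start site, and H2-Eb1 at chr17:34305617-34305866, plus strand, with the boxes at 94 and 62. The table held 5 of the 10 genes. Of the others, Ly75 had a Y box 80 bases before its start and no X box core in this window. The letters of all motifs searched here were chosen after these sequences had been seen.
H2-Aa: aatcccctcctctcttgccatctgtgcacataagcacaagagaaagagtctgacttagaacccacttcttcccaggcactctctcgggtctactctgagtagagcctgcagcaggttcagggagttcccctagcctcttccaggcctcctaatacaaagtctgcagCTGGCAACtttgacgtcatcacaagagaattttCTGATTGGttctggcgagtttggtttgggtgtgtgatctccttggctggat
H2-Eb1: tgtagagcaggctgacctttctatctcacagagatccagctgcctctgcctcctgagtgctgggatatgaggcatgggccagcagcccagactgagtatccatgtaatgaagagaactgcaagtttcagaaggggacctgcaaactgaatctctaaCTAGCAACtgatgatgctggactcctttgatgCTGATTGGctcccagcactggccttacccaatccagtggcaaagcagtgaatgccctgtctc

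H2-Aa was at 4.41, 5.41 and 6.71 TPM in resting libraries, at 2.23, 2.29 and 2.70 TPM in controls at 18 h and at 1.49, 1.72 and 1.86 TPM in controls at 36 h. The TNFR2 agonist at 36 h gave 2.85, 3.15 and 3.35 TPM (32, 39 and 32 expected counts in the order of the replicates 1, 2 and 3), all above the control and all below resting cells. The log2 fold change was 0.98 ± 0.26. At that time the 4-1BB libraries held 1.82, 1.90 and 2.54 TPM, DR3 libraries 1.31, 1.46 and 1.70 TPM and OX40 libraries 1.15, 1.23 and 1.31 TPM, and none of these 3 agonists was called against control. At 18 h all 11 agonist libraries lay between 1.07 and 2.87 TPM, with log2 fold changes from -0.67 ± 0.32 (OX40) to -0.07 ± 0.27 (TNFR2) and none called.

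H2-Ab1 showed the same high group at 36 h. Resting libraries held 2.81, 3.67 and 3.73 TPM, controls 1.38, 1.46 and 1.72 TPM at 18 h and 1.81, 1.91 and 2.38 TPM at 36 h, and TNFR2 libraries 4.66, 5.67 and 5.72 TPM at 36 h. Here the TNFR2 libraries lay above the resting ones as well as above the control (log2 against control 1.22 ± 0.23). The 4-1BB libraries held 2.91, 3.34 and 4.23 TPM (log2 0.66 ± 0.24, called), DR3 libraries 2.09, 3.20 and 3.21 TPM and OX40 libraries 2.51, 3.38 and 4.63 TPM at 36 h. The call of the 4-1BB agonist did not outlast the removal of any of its own 3 libraries or of control replicate 2 or 3 at 36 h or control replicate 2 at 18 h (0.58 to 0.72), nor of the libraries rich in the ribosomal locus transcript (0.65), nor the change to DESeq2 (0.66). At 18 h no agonist was called, and the 2 OX40 libraries differed widely, with 2.10 and 0.75 TPM (23 and 5 counts). Without OX40 replicate 1 at 18 h the OX40 difference of H2-Ab1 was -1.67 and called, as were the TNFR2 lead over OX40 at 18 h (2.12) and the change of the OX40 effect with time (2.25).

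H2-Eb1 stood at 3.68, 4.75 and 5.33 TPM in resting libraries, 2.63 to 3.13 TPM in controls at 18 h and 3.25 to 3.59 TPM in controls at 36 h. With the TNFR2 agonist at 36 h, the culture with the highest group mean, it was at 3.77, 4.40 and 5.07 TPM, above the control but overlapping the resting range and libraries of the 4-1BB and OX40 agonists, with a log2 fold change of 0.42 ± 0.19 that was not called. No agonist was called for H2-Eb1 at either time. The call of H2-Eb1 against resting cells at 18 h (log2 -0.53 ± 0.21) ended without resting replicate 3 (-0.44), control replicate 3 (-0.47) or the libraries rich in the ribosomal locus transcript (-0.64, with control replicate 3 the only control left). That of H2-Ab1 at 36 h (-0.55 ± 0.26) ended without any 1 of 20 of the 32 libraries, among them resting replicate 1 (-0.51) and control replicate 2 at 36 h (-0.47), and without the libraries rich in the ribosomal locus transcript (-0.54).

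Ciita (ENSMUSG00000022504, chr16:10480059-10528418, plus strand) was close to the limit of detection. Resting libraries held 0.37, 0.48 and 0.57 TPM, from 17, 19 and 21 expected counts, and controls 0.16 to 0.23 TPM at 18 h and 0.08 to 0.14 TPM at 36 h. The 23 agonist libraries lay between 0.06 and 0.33 TPM, from 1 to 18 counts, below every resting library. The TNFR2 agonist at 36 h, with the highest H2-Ab1, gave Ciita at 0.14, 0.17 and 0.20 TPM, touching the control range, and a log2 fold change of 0.39 ± 0.46 whose 95% interval runs from -0.50 to 1.28. No change of Ciita with an agonist was called at either time, and counts this low leave wide intervals.

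B cells and dendritic cells express class II chains, Cd74, Cd86 and Ciita, so their markers are given beside these results. From resting cells to controls, 12 of 15 B cell markers tested fell at 18 h and none rose, and 12 of 13 markers of dendritic cells, macrophages and monocytes fell and none rose, where 40.9% of all genes rose and 40.1% fell. Their part in the lower class II chains, Cd74, Cd86 and Ciita of the cultures was not tested. With the TNFR2 agonist at 36 h, against control, 2 of 15 B cell markers were called higher and 1 lower, and 1 of 13 myeloid markers was called higher and none lower, against 13% and 11.9% of all genes. All 18 B cell markers, led by Ighm, summed to 357.9 to 385.0 TPM in TNFR2 libraries at 36 h and to 346.7 to 359.6 TPM in controls at 36 h. The sum of 5 of them (Cd79a, Ms4a1, Pax5, Bank1 and Cr2), picked after their values were seen, was 0.58 to 1.2 TPM in TNFR2 libraries at 36 h and 1.11 to 1.68 TPM in controls at 36 h, ranges that overlap. The mean of the 3 class II chains was 3.86 to 4.55 TPM and 2.22 to 2.61 TPM in the same libraries, and the part of these markers in that difference was not tested.

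Some defining markers of dendritic cells and macrophages, named after their values were seen, were at or near 0, in a list that summed to between 2.79 and 6.43 TPM in the cultures. Clec9a had no TPM above 0 in any group, Itgax and Csf1r were at 0.00 and 0.01 TPM on average with the TNFR2 agonist at 36 h, and C1qc and Tyrobp were listed at 0 there. Others of the list were present: after Cst3 (30.05 CPM), Cd68 (2.27 CPM) and Xcr1 (1.08 CPM) were the most abundant in the mean of all libraries. The most abundant B cell marker, Ighm, was at 919 TPM in resting libraries and at 301 to 463 TPM in the group means of cultures, and Cst3, which many cells express, at 91.8 TPM and at 63.2 to 78.8 TPM. With the summed B cell and myeloid markers as covariates, the TNFR2 difference at 36 h was 1.11 ± 0.35 for H2-Ab1 and still called, and 0.86 ± 0.35 for H2-Aa and no longer called. The B cell sum was led by Ighm (349.9 CPM in the mean of all libraries, then Igkc at 9.14 CPM) and the myeloid sum by Cst3. These covariates thus followed mainly Ighm and Cst3, so calls kept or lost with them cannot weigh traces of other cells. In that fit the 4-1BB difference at 18 h was 0.44 ± 0.15 for Cd74 and no longer called, as were those of Cd86 with the TNFR2, 4-1BB and OX40 agonists at 18 h (0.19, 0.23 and 0.20) and that of H2-Ab1 with the 4-1BB agonist at 36 h (0.64).

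**Figure D3:**
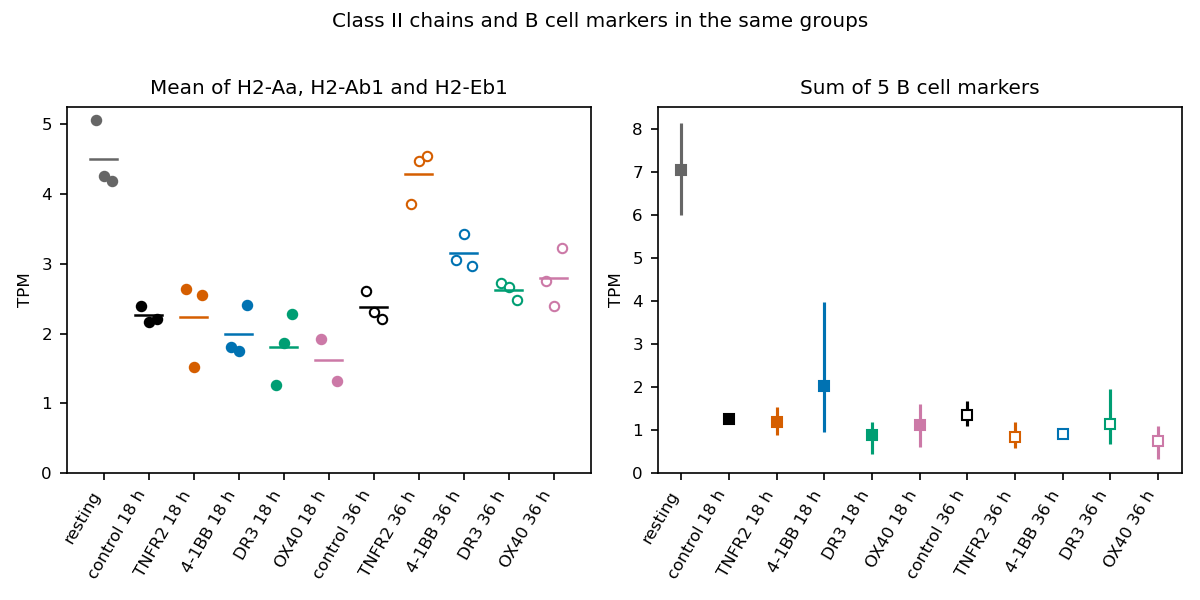
Mean TPM of H2-Aa, H2-Ab1 and H2-Eb1 in every library (left) and the sum of 5 B cell markers in TPM (right; squares are group means and lines run from the lowest to the highest library), by group. Both are highest in resting cells. Libraries of the TNFR2 agonist at 36 h have a class II mean of 3.86 to 4.55 TPM and a sum of these 5 markers of 0.58 to 1.2 TPM. The 5 markers were picked after their values were seen. All 18 B cell markers, not drawn here, summed to 357.9 to 385.0 TPM in the same libraries and to 346.7 to 359.6 TPM in controls at 36 h.

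Whether the 4 agonists differ from each other was tested. These contrasts were not used to choose the genes, though the same agonist libraries were. At 18 h, 6 of the 10 genes differed among the agonists in the joint test (edgeR's quasi-likelihood test, Benjamini-Hochberg over all genes), where 14.3% of all genes did. The adjusted p was 3.59e-21 for Ly75, 1.71e-13 for Cd83, 4.65e-13 for Cd80, 9.91e-11 for Icam1, 0.0023 for Cd74 and 0.0043 for Cd86. That of Cd74 was 0.0565 without the libraries rich in the ribosomal locus transcript, and that of Cd86 was 0.949 with the marker covariates and 0.1 with limma on TPM. At 36 h it was again 6 of 10, against 9.06% of all genes: Cd83 (7.49e-15), Cd74 (8.34e-11), Ly75 (1.28e-09), Cd80 (1.23e-07), Icam1 (4.26e-06) and H2-Aa (0.00087, and 0.0679 with the marker covariates). H2-Ab1 missed the threshold (0.0578), and was called in 3 of the alternative fits (0.0162 to 0.0473) and without any 1 of 5 single libraries, among them OX40 replicate 3 at 36 h (0.0466). Cd86 also missed it (0.327).

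Of 60 differences at each time (10 genes in 6 pairs of agonists), 24 were called at 18 h and 22 at 36 h, with p adjusted over all genes and the 6 pairs together, against 5.66% and 3.61% of all gene and pair combinations. With the marker covariates 11 were called at 18 h. The 4-1BB agonist gave the highest Cd80 and Ly75. The TNFR2 minus 4-1BB difference at 18 h was -0.48 ± 0.07 for Cd80 (adjusted p = 3.66e-06) and -0.51 ± 0.04 for Ly75 (adjusted p = 2.48e-15), with all 3 4-1BB libraries above all 3 others in both genes. At 36 h it was -0.26 ± 0.04 for Ly75 (adjusted p = 1.24e-06), while for Cd80 it was -0.12 ± 0.06 and not called (95% interval -0.24 to 0.00). Over the DR3 and OX40 agonists, the 4-1BB agonist gave more Cd80, Cd83 and Ly75 at both times, with log2 differences from 0.27 (Ly75 v OX40 at 36 h) to 0.86 (Cd80 v OX40 at 18 h).

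The TNFR2 agonist exceeded the 4-1BB agonist in Cd74, by 0.23 ± 0.05 at 18 h (adjusted p = 0.0032) and by 0.23 ± 0.05 at 36 h (adjusted p = 0.00077). The difference at 18 h was 0.20 and not called without the libraries rich in the ribosomal locus transcript. Neither was called with the marker covariates (0.23 and 0.19, adjusted p = 0.176 and 0.0566), nor the one at 36 h with limma on TPM (0.20). Over the OX40 agonist its lead in Cd74 was 0.52 ± 0.05 at 36 h (adjusted p = 3.17e-11), and the DR3 agonist also led the OX40 agonist there, by 0.37 ± 0.05 (adjusted p = 2.11e-07). Over the DR3 agonist its lead in Cd74 at 36 h was 0.15 ± 0.05 with an adjusted p of 0.0487. That call ended without any 1 of 22 of the 32 libraries, among them TNFR2 replicate 2 at 36 h (0.13). It also ended without the libraries rich in the ribosomal locus transcript (0.16), with the marker covariates (0.096) and with limma on TPM (0.13). The same held with RLE scaling, DESeq2, no filter on low counts and the replicate block (each 0.15).

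Of the class II chains, H2-Aa parted the TNFR2 agonist from 2 of the others at 36 h, H2-Ab1 from the DR3 agonist only and H2-Eb1 from none. H2-Aa was higher than with the DR3 agonist by 1.2 ± 0.27 (adjusted p = 0.0035) and than with the OX40 agonist by 1.33 ± 0.27 (adjusted p = 0.0013), with all 3 TNFR2 libraries above all 6 others. With the marker covariates the first was 1.11 ± 0.36 and not called (adjusted p = 0.11). H2-Ab1 was higher than with the DR3 agonist by 0.76 ± 0.22 (adjusted p = 0.0382). That call ended without any 1 of the 6 libraries compared (0.63 to 0.86) or without OX40 replicate 1 at 36 h (0.76). It also ended without the libraries rich in the ribosomal locus transcript (0.66), with the marker covariates (0.71), with DESeq2 (0.77) and with limma on TPM (0.74). Against the OX40 agonist the H2-Ab1 difference of 0.64 ± 0.22 was not called (95% interval 0.20 to 1.07). Against the 4-1BB agonist the differences were 0.65 ± 0.26 for H2-Aa and 0.56 ± 0.22 for H2-Ab1 and were not called, with 95% intervals of 0.15 to 1.16 and 0.13 to 0.99.

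For Cd83 the TNFR2 minus 4-1BB difference was -0.15 ± 0.04 at 18 h (adjusted p = 0.0055), and at 36 h it was -0.04 ± 0.04 and not called (95% interval -0.12 to 0.03). For Icam1 the OX40 agonist was below each of the other 3 at both times, by 0.17 (v TNFR2 at 36 h) to 0.42 (v 4-1BB at 18 h). For Icam1 the TNFR2 agonist was not called different from the 4-1BB agonist at 18 h (-0.04, 95% interval -0.11 to 0.03), nor by enough to be called from the DR3 agonist (0.11, 0.04 to 0.18). Among the pairs, Cd86 differed between the 4-1BB agonist and the DR3 (0.29 ± 0.07, adjusted p = 0.0033) and OX40 agonists (0.26 ± 0.07, adjusted p = 0.0193) at 18 h, and the latter call ended without 4-1BB replicate 2 (0.25) or 3 (0.25) or OX40 replicate 1 (0.21). Neither was called with the marker covariates (-0.0105 and 0.032) or with limma on TPM (0.29 and 0.24), nor the latter with DESeq2 (0.25). No difference among agonists was called for H2-Eb1 or Ciita. Leaving out OX40 replicate 1 at 18 h also ended the calls of the TNFR2 over the OX40 agonist at that time for Cd80 (0.38 to 0.32) and Ly75 (0.21 to 0.12), and of DR3 over OX40 for Cd83 (0.16 to 0.14). For Cd83 that last call also ended without DR3 replicate 3 at 18 h (0.13). The TNFR2 lead over DR3 for Ly75 at 18 h (0.14 ± 0.04) ended without TNFR2 replicate 1 (0.12) or DR3 replicate 1 (0.11) of that time or the libraries rich in the ribosomal locus transcript (0.12), and that over OX40 for Cd80 at 36 h (0.27 ± 0.06) without OX40 replicate 1 at 36 h (0.25). Without the libraries rich in the ribosomal locus transcript, the TNFR2 lead over OX40 was not called for Cd74 at 18 h (0.22) or for Cd80 (0.27) and Icam1 (0.16) at 36 h.

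Time was tested in 2 ways. These contrasts were not used to choose the genes, but they are differences of values that were, and so are not independent of that choice. In the controls, 6 of the 10 genes changed from 18 h to 36 h, where 52.2% of all genes did: Cd80, Cd74, Ly75 (0.34 ± 0.04, adjusted p = 7.36e-11) and Icam1 (0.22 ± 0.04, adjusted p = 3.29e-06) rose and Cd86 and Cd83 fell. The effect of an agonist at 36 h minus its effect at 18 h was called for 4 genes with 4-1BB and for 2 with each of the other agonists, against 4.37% of all genes for 4-1BB, 6.69% for TNFR2, 2.31% for DR3 and 3.48% for OX40. Every called difference was negative, that is, the effect was smaller at 36 h.

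Ly75 and Icam1 were called with all 4 agonists. The change for Ly75 was -0.86 ± 0.05 with 4-1BB (adjusted p = 3.25e-17), -0.61 ± 0.05 with TNFR2 (3.69e-12), -0.55 ± 0.05 with DR3 (2.48e-10) and -0.41 ± 0.05 with OX40 (2.41e-06). For Icam1 it was -0.46 ± 0.05 with TNFR2 (9.22e-09), -0.42 ± 0.05 with 4-1BB (8.25e-08), -0.33 ± 0.05 with DR3 (3.67e-05) and -0.26 ± 0.06 with OX40 (0.0034), the last of which was not called without the libraries rich in the ribosomal locus transcript (-0.26). With the 4-1BB agonist Cd80 (-0.67 ± 0.11, adjusted p = 2.01e-05) and Cd86 (-0.52 ± 0.10, adjusted p = 0.00039) also changed. With the marker covariates neither was called, nor was the change of Icam1 with the 4-1BB or OX40 agonist. In H2-Aa the TNFR2 effect moved the other way, by 1.05 ± 0.37, and was not called (95% interval 0.31 to 1.78) unless TNFR2 replicate 3 at 18 h was left out (1.24).

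**Figure D4:**
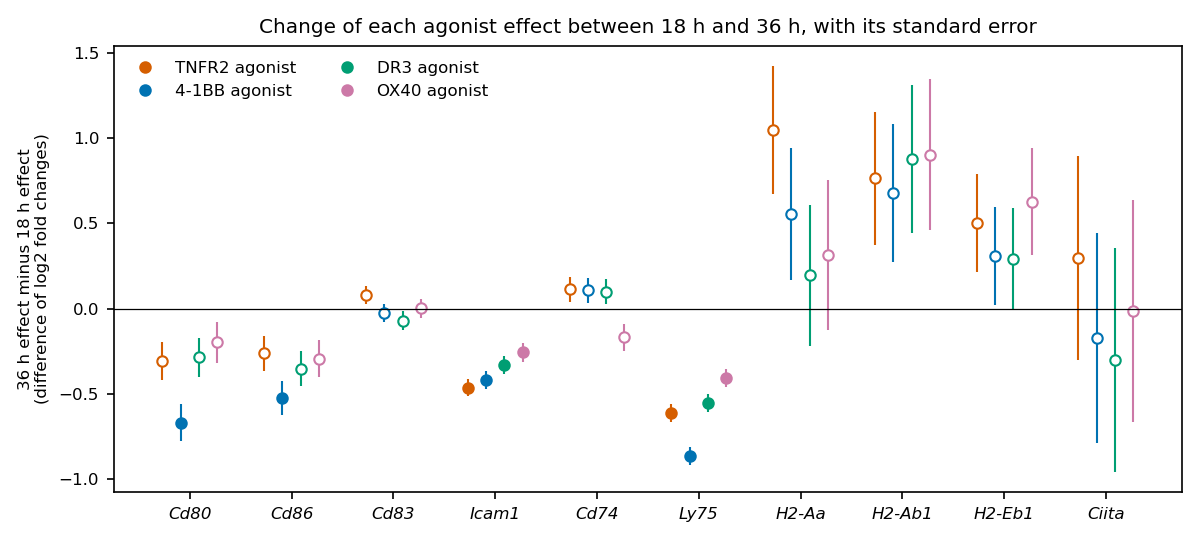
Log2 fold change against control at 36 h minus that at 18 h (y axis) for the 10 genes (x axis) and the 4 agonists, with standard errors. Filled points were called at an adjusted p under 0.05. Ly75 (-0.86 to -0.41) and Icam1 (-0.46 to -0.26) lie below 0 with all 4 agonists, and Cd83 and Cd74 lie between -0.17 and 0.11.

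Other genes of antigen presentation were taken from 5 lists chosen with earlier results of these data known, so their counts are a description. Genes named from the lists were picked by the size of their changes in these same comparisons. Their adjusted p-values therefore describe that choice and are not independent evidence. Their counts stand beside the shares of all genes called higher and lower, 15.8% and 15.3% (TNFR2), 12.7% and 13.1% (4-1BB), 9.66% and 9.94% (DR3) and 9.32% and 9.71% (OX40) at 18 h, and 13% and 11.9%, 10.9% and 11.5%, 6.97% and 6.39%, and 7.12% and 6.21% at 36 h. For peptide loading of class II and its regulators, of 13 genes tested, the TNFR2 agonist called 2 higher and 2 lower at 18 h and 2 higher and 1 lower at 36 h, and the DR3 and OX40 agonists called none at 36 h. H2-DMa, a chain of the molecule that exchanges peptide on class II, was 42.2 ± 2.7 TPM (SD, n = 3) in resting libraries and 24.5 ± 0.9 TPM in controls at 18 h. It rose with the TNFR2 agonist by 0.60 ± 0.08 at 18 h (adjusted p = 7.24e-09) and by 0.49 ± 0.07 at 36 h (adjusted p = 1.97e-07), and at 36 h it was not called with the other 3 agonists. H2-Ob, a chain of the inhibitor of that exchange, fell from 45.4 ± 4.8 TPM in resting libraries to 2.22 ± 0.51 TPM in controls at 18 h (log2 -4.20 ± 0.13, adjusted p = 4.49e-32) and further with the TNFR2 (-1.14 ± 0.23, adjusted p = 9.26e-05) and 4-1BB agonists (-1.22 ± 0.23, adjusted p = 3.07e-05).

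Among genes of class I presentation, of 15 tested, 10 were called higher and 2 lower with the TNFR2 agonist at 18 h, 10 and 1 with DR3, 8 and 1 with OX40 and 5 and 2 with 4-1BB. At 36 h the counts were 10 and 1 (TNFR2), 7 and 1 (DR3), 6 and 0 (OX40) and 7 and 1 (4-1BB). The median log2 fold change of the list was 0.28 with the TNFR2 agonist and 0.08 with the 4-1BB agonist at 18 h, against -0.01 and 0.00 for all genes. Tapbpl, an editor of class I peptides, rose with every agonist at both times, by 0.38 ± 0.04 (DR3 at 36 h, adjusted p = 5.39e-11) to 0.65 ± 0.04 (TNFR2 at 18 h, adjusted p = 1.07e-18). The loading factor Tapbp rose by 0.51 ± 0.04 with the TNFR2 agonist at 18 h (adjusted p = 4.57e-16), and the chaperones Calr (1.36 ± 0.03) and Canx (1.45 ± 0.04) rose from resting cells to control at 18 h (adjusted p = 7.69e-36 and 3.83e-31). Most of the list fell in that last comparison: 10 of 15 genes were called lower and 5 higher, against 40.1% and 40.9% of all genes. The median log2 fold change of the list there was -0.41.

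Of genes described in mature dendritic cells, 17 were tested, and 10 to 12 of them were called higher in each of the 8 comparisons and at most 2 lower, against 6.97% to 15.8% and 6.21% to 15.3% of all genes. Nothing is read from this excess, because the list was chosen with earlier results of these data known. Cacnb3, a calcium channel subunit, was at 2.95 ± 0.41 TPM in controls at 18 h and at 50.8 ± 1.7 TPM with the 4-1BB agonist (log2 3.94 ± 0.08, adjusted p = 6.73e-37). Zbtb46, a transcription factor of classical dendritic cells, rose from 4.70 ± 0.39 to 21.4 ± 0.3 TPM in the same comparison (log2 2.10 ± 0.08, adjusted p = 8.45e-27). Cd40, the receptor through which helper T cells license dendritic cells, rose with 7 of 8 agonist comparisons and at 18 h with DR3 was at 0.66 ± 0.26 (adjusted p = 0.0652).

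Of 12 ligands of other costimulatory receptors tested, 7 were called higher and 3 lower with the 4-1BB agonist at 18 h, and 3 and 2 with the DR3 agonist. Cd70, the ligand of CD27, rose from 1.41 ± 0.29 to 6.80 ± 0.90 TPM with the 4-1BB agonist at 18 h (log2 2.28 ± 0.28, adjusted p = 3.38e-09), whereas the inhibitory Vsir fell from 146 ± 8 to 82.7 ± 3.6 TPM (log2 -0.81 ± 0.04, adjusted p = 3.89e-21). Adhesion genes also went both ways, with 3 called higher and 7 lower of 14 with the TNFR2 agonist at 18 h. Vcam1 rose there by 1.08 ± 0.16 (adjusted p = 3.59e-07), and Alcam, a ligand of CD6, fell by 0.90 ± 0.05 on the log2 scale (adjusted p = 1.73e-19).

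**Figure D5:**
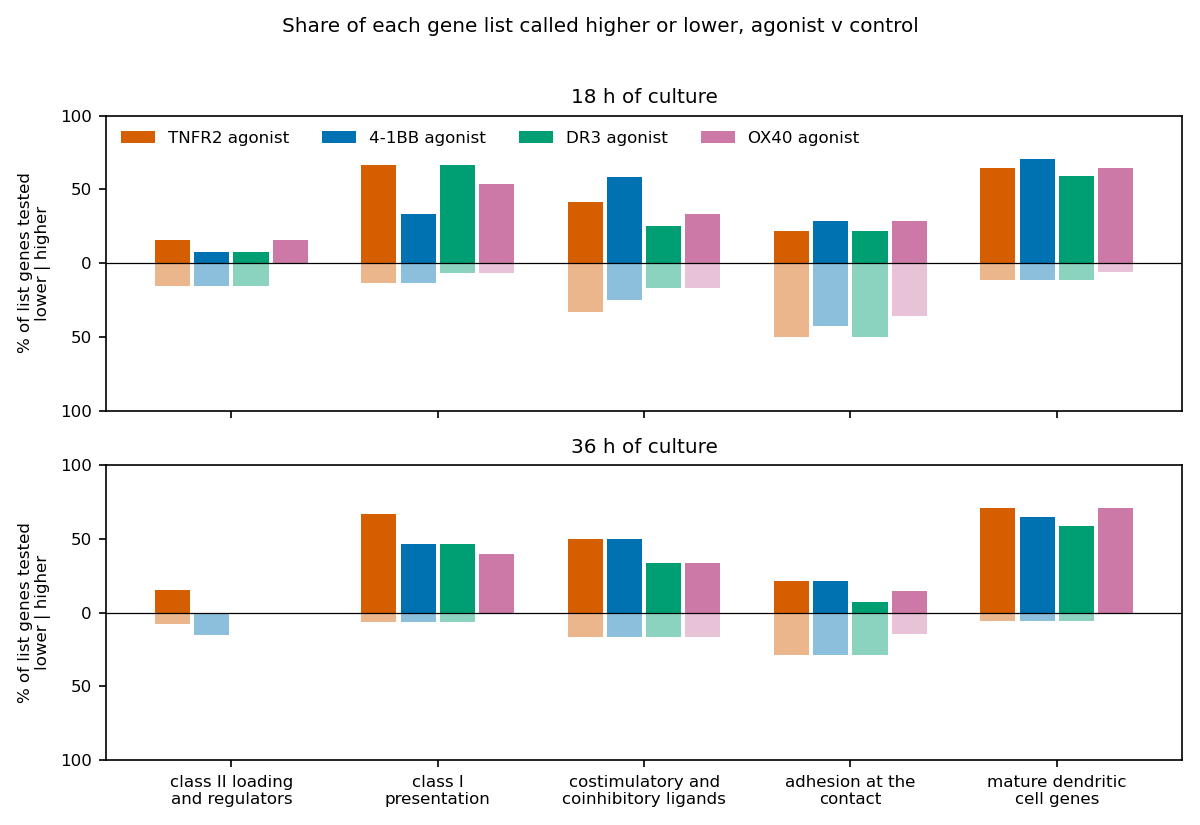
Share in percent of the tested genes of 5 lists (x axis) called higher (upward bars) or lower (paler, downward bars) with each agonist against the control of the same time, at 18 h above and 36 h below. The lists hold 13, 15, 12, 14 and 17 tested genes and were chosen with earlier results of these data known. Mature dendritic cell genes have 10 to 12 of 17 called higher, class I genes 5 to 10 of 15, and class II loading genes at most 2 of 13.

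The 10 genes did not share 1 pattern over the 11 group means, which share time and control libraries. On log2 CPM, Pearson's r was 0.94 between Icam1 and Ly75, 0.93 between Cd86 and Ciita and 0.96 between H2-Ab1 and H2-Eb1, but -0.69 between Cd80 and Cd86 and 0.36 between H2-Aa and H2-Ab1. Among all genes tested, those most like Ly75 over the 11 means were Cd70 (0.976), Cacnb3 (0.974) and Tnfsf9 (0.97). For Cd86 they were Itm2c (0.988), Slamf6 (0.987) and Fam32a (0.986), for Cd80 Snx16 (0.98), Map2k1 (0.977) and Aqp4 (0.972), and for Icam1 Snx11 (0.979), Pofut1 (0.978) and Arhgef2 (0.972). Cd83 was most like Fam89a (0.964), and Cd74 most like Emp3 (0.949).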

How the data were processed

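Bulk RNA-seq libraries were made with a low-input full-length kit, per the labels' protocols. FastQC, Trimmomatic, STAR 2.5.3a, RSEM 1.2.28 and build mm10 are named in the submitters' processing notes. For each library the authors deposited RSEM expected counts, not scaled, and TPM. Annotation release and strandedness: not given in the sources used here. Gene positions come from GENCODE M21. Here expected counts were rounded and fitted with edgeR 4.0.16 (R 4.3.3): filterByExpr by group, TMM, 1 mean for each of 11 groups over 32 libraries (common dispersion 0.00162), robust quasi-likelihood F tests, Benjamini-Hochberg over 14313 genes, called under 0.05. Adjusted p-values come from this fit. TPM, from the deposited tables, gives levels only. The fit was tested on simulated data.

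The members and lists were chosen with earlier results of these data known. Besides the members, genes were named from each list among the 3 genes with the largest mean change among those called in at least 4 of 8 agonist comparisons and the 2 with the largest change between resting and control cells at 18 h, the 3 most abundant markers of each marker list, and up to 3 genes most like a member. Other markers at or near 0 and the 5 summed B cell markers were picked after their values were seen. Alternatives were RLE scaling, DESeq2 1.42.0, no or a stricter filter (5 CPM in 3 libraries), only the groups compared, a replicate block, marker covariates, limma 3.58.1 on log2(TPM + 1), and leaving out libraries.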

Additional observations from a re-analysis of the deposited data

Results flagged for a closer look

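These results differed between the 2 time points by a test of the difference itself, the effect of an agonist at 36 h minus that at 18 h on the log2 scale. Both effects were used to choose the genes, so this test is not independent of that choice. With the 4-1BB agonist the difference was -0.67 for Cd80, -0.52 for Cd86, -0.42 for Icam1 and -0.86 for Ly75. It was -0.46 for Icam1 and -0.61 for Ly75 with the TNFR2 agonist, -0.33 and -0.55 with the DR3 agonist, and -0.26 and -0.41 with the OX40 agonist. For Cd80 the control more than doubled between the times, and on log2(TPM + 1) in limma its difference was -0.39 and not called. With the marker covariates the 4-1BB differences of Cd80 (-0.65), Cd86 (-0.27) and Icam1 (-0.33) were not called. The OX40 difference of Icam1 was not called with them (-0.21), nor without the libraries rich in the ribosomal locus transcript (-0.26). The 4 agonists share the same control libraries at each time.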

How the results depend on the processing

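The counts of members called moved by over 1.5 times in 7 cases. With the B cell and myeloid marker sums as covariates they were 2 (control at 18 h v resting), 3 (control at 36 h v resting), 11 (pairs of agonists at 18 h), 1 (change of the 4-1BB effect with time) and 1 (change of the OX40 effect). These sums, led by Ighm and Cst3, differ between resting and cultured libraries, and the standard errors grew up to 4.33 (Ciita). The B cell sum also differs between some cultures of the same time. At 18 h it was 376.3 to 431.4 TPM in controls and 531.3 to 556.1 TPM with the 4-1BB agonist, so this covariate and that agonist are not independent. In that fit H2-Eb1 (1.13) and Ciita (3.16) at 18 h and Cd74 (0.10), H2-Ab1 (0.012) and Ciita (2.78) at 36 h against resting reversed, as did Cd86 between the 4-1BB and DR3 agonists at 18 h (-0.0105), none called. The stricter filter tested 6 members and called 6 (control at 18 h v resting). Without the ribosomal locus libraries the change of the OX40 effect was called for 1 gene. Leaving out 1 library at a time gave 9 to 10 and 8 to 9 calls against resting, 21 to 25 and 19 to 22 pair differences at 18 h and 36 h, and 4 and 2 to 3 changes of the 4-1BB and OX40 effects. All-gene counts fell by over 1.5 times in 20 of 29 comparisons without the ribosomal locus libraries, in 23 with the covariates and in 22 with limma on TPM. With only the groups compared they moved in 7, 4 down and 3 up. RLE scaling, DESeq2 and no filter moved none by that much. Without the ribosomal locus libraries, control replicate 3 is the only control left at 18 h, so calls lost there cannot be told apart from the loss of libraries. Same-numbered libraries deviated together in few of 155 pairs (median r -0.01, 4 over 0.1). With at most 3 libraries in a group, this cannot show whether the numbers pair them. With the replicate block 287 member results were unchanged, 1 lost and 2 gained a call. In that fit 10, 9 and 24 members or pairs were called against resting at 18 h and 36 h and between agonists at 18 h. The cause of these moves was not tested, other than fewer genes or libraries. Depth limits the class II chains and Ciita.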
